A study of Rattus norvegicus with 23 samples.

Results

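The genes described here are the vascular growth factors Vegfa and Vegfd and the endothelial genes Tie1, Tek, Nos3, Vwf, Cldn5 and Ace, followed in rat dorsal root ganglia (DRG) after a cut of the sciatic nerve. All probes that the platform annotation assigns to these genes were taken, whatever their values. They were 13 of 5088 probes, for 8 of 4153 named genes. Vegfa and Vegfd had 2 probes each, Nos3 had 4, and Tie1, Tek, Vwf, Cldn5 and Ace had 1 each. Probe names such as 52C12 are those of the platform. Their form is that of a printing plate and a well, which the labels do not explain, and the leading number is called the plate here.

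The animals were Long-Evans rats whose sciatic nerve was transected at postnatal days 20 to 24. L4 and L5 ganglia were removed after 4, 8, 12, 18, 24, 48, 148 or 296 h, with 2 arrays for the last of these times and 3 for each of the others. One of the pair at 296 h has 294 h as its time label. On each of the 23 spotted oligonucleotide arrays, lesioned RNA in Cy5 was set against intact RNA in Cy3, so that there was no dye swap and no array of intact against intact ganglia. No genotype is named. The source field gives cultured DRG cells and the description of labelling mentions cAMP, which differs from the surgical account followed here. Nothing in the labels ties replicates to separate animals, so a p-value measures only the spread of these samples, which may be technical. Whole ganglia hold neurons, glia, fibroblasts and vessels. In such bulk samples fewer cells of a type and less RNA per cell cannot be told apart.

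Vegfa encodes the main growth factor of the VEGF family, which acts on endothelial cells through the receptors Kdr and Flt1. Vegfd acts through Flt4, the receptor of lymphatic endothelium. Tie1 and Tek are the endothelial receptor pair of the angiopoietin system, and Nos3 makes nitric oxide in endothelium. Vwf is a clotting glycoprotein stored by endothelial cells, Cldn5 a tight junction protein that seals neural vessels, and Ace the enzyme that converts angiotensin I. Sensory ganglia have a dense capillary bed that is more permeable than that of the nerve trunk.

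RefSeq promoter entries (build GRCr8) matched 6 of the 8 genes, all but Tek and Vwf. Vegfa had 2 entries, of which only that with the most upstream start was searched. The 250 bases before the start of Vegfa, Vegfd and Ace are shown here because the largest ratios of the whole group, in both directions, and the one difference between late and early times came from probes of these genes. Letters are written 5′ to 3′ on the strand of the gene. Capitals mark GGAAG, a sequence that holds the GGAA core bound by ETS factors, or its reverse complement.
Vegfa, chr9:22452604-22452853, plus strand: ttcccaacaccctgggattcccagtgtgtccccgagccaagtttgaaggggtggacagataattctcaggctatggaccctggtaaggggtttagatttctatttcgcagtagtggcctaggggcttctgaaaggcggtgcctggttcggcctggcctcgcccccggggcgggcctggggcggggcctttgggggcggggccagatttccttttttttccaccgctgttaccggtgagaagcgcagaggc
Vegfd, chrX:33739893-33740142, minus strand: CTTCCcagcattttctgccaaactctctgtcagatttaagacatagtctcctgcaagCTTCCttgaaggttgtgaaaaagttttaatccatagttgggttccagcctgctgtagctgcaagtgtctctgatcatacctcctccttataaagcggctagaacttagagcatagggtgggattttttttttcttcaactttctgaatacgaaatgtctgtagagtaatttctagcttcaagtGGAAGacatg
Ace, chr10:91409879-91410128, plus strand: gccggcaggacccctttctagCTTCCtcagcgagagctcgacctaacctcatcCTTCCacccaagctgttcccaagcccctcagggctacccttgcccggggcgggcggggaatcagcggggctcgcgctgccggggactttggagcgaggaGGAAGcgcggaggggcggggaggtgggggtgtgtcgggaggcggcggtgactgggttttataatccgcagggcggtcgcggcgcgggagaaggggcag
The Vegfd and Ace windows held 3 matches of GGAAG each, as did the window of Tie1, and that of Nos3 held 1. The Vegfa and Cldn5 windows held none. Shorter forms of the ETS core, such as GGAA, were not searched. A window without GGAAG may thus still hold such a core. Among all 33469 windows of this length in the table, 63.3% held GGAAG, so a match is common. The hypoxia response cores ACGTG (in 16.6% of all windows) and GCGTG (25.9%) and the AP-1 site TGACTCA (4.05%) were searched on both strands and had no match in any of the 6 windows. These matches describe letters only, and binding was not measured.

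Values are log2 ratios of lesioned over intact ganglia, so that 0 is no difference and 1 is a doubling. The direction was taken from the dyes in the labels. Of the 23 arrays, 17 carried 4945 to 5011 values and are called full. The other 6 carried 2063 to 4353 values and are called sparse. They are every array at 148 h, the second at 296 h, and the second and the third at 48 h. Sparse arrays spread more widely, with weights of 0.22 to 0.55 against 0.39 to 3.10 for full arrays. The full and the sparse array at 296 h had the same weight of 0.39, so weights did not set them apart. Time and array class overlap because 148 h held no full array. A ratio gives no level, so the endothelial identity of the signal could not be checked from these files.

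Vegfa was represented by 2 probes that gave different results. On probe 52C12 the log2 ratios were -2.07, -2.50 and -2.32 at 4 h, -3.10, -2.29 and -2.55 at 8 h, and -1.76, -3.35 and -4.63 at 12 h. They were -4.51, -4.62 and -4.40 at 18 h and -3.43, -2.81 and -3.11 at 24 h. At the later times they were -4.35, -4.29 and -5.39 at 48 h, -3.13, -2.85 and -3.08 at 148 h, and -2.68 and -3.08 at 296 h. The probe was thus below 0 on 23 of 23 arrays, full and sparse alike, and closest to 0 on replicate 1 at 12 h. The mean over the 8 times fell by 3.34 on the log2 scale (SE 0.17, adjusted p = 1.15e-10), a signal 10.1-fold lower in lesioned ganglia. By size of this mean it ranked 3 among 2327 tested probes.

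Probe 25C10 of the same gene ranged from -1.01 to 0.99 with a median of -0.17, above 0 on 11 arrays and below on 12. Its mean over the times was -0.12 (SE 0.13, adjusted p = 0.474). The ranges of the 2 Vegfa probes did not overlap. Array by array, 25C10 was above 52C12 on 23 of 23 arrays, by 3.20 on average (SD 1.20, n = 23, adjusted p = 4e-05 by a two-sided sign-flip permutation test). This and the following comparisons within a gene are 8 pairs of probes, over which p was adjusted, and the smallest unadjusted p that the permutations can give is 1e-05.

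Vegfd showed the same disagreement with the opposite sign. Probe 52H11 gave 4.05, 1.83 and 3.05 at 4 h, 4.09, 3.84 and 2.35 at 8 h, and 1.19, 4.40 and 4.68 at 12 h. It gave 5.33, 4.30 and 3.22 at 18 h and 2.93, 3.77 and 5.30 at 24 h. Later values were 4.78, 5.67 and 4.18 at 48 h, 2.93, 2.69 and 3.29 at 148 h, and 3.81 and 2.02 at 296 h. All 23 arrays were above 0, and replicates of 1 time differed by several log2 units at 12 h. The mean over the times rose by 3.77 (SE 0.28, adjusted p = 1.96e-08), which is 13.6-fold and ranked 1 among the 2327 probes.

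The other Vegfd probe, 29H11, ranged from -1.39 to 0.86 on its 21 arrays with a median of -0.13, and had too few values at 148 h to enter the tests over all times. It lay below 52H11 on 21 of 21 arrays, with a mean difference of -3.75 (SD 1.41, n = 21, adjusted p = 5.33e-05 by the permutation test). Over 23 arrays the ratios of 52C12 and 52H11 ran in opposite directions, with Pearson's r of -0.59 and Spearman's rho of -0.59. This correlation is a description of probes that share arrays, labelling and plate.

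**Figure D1:**
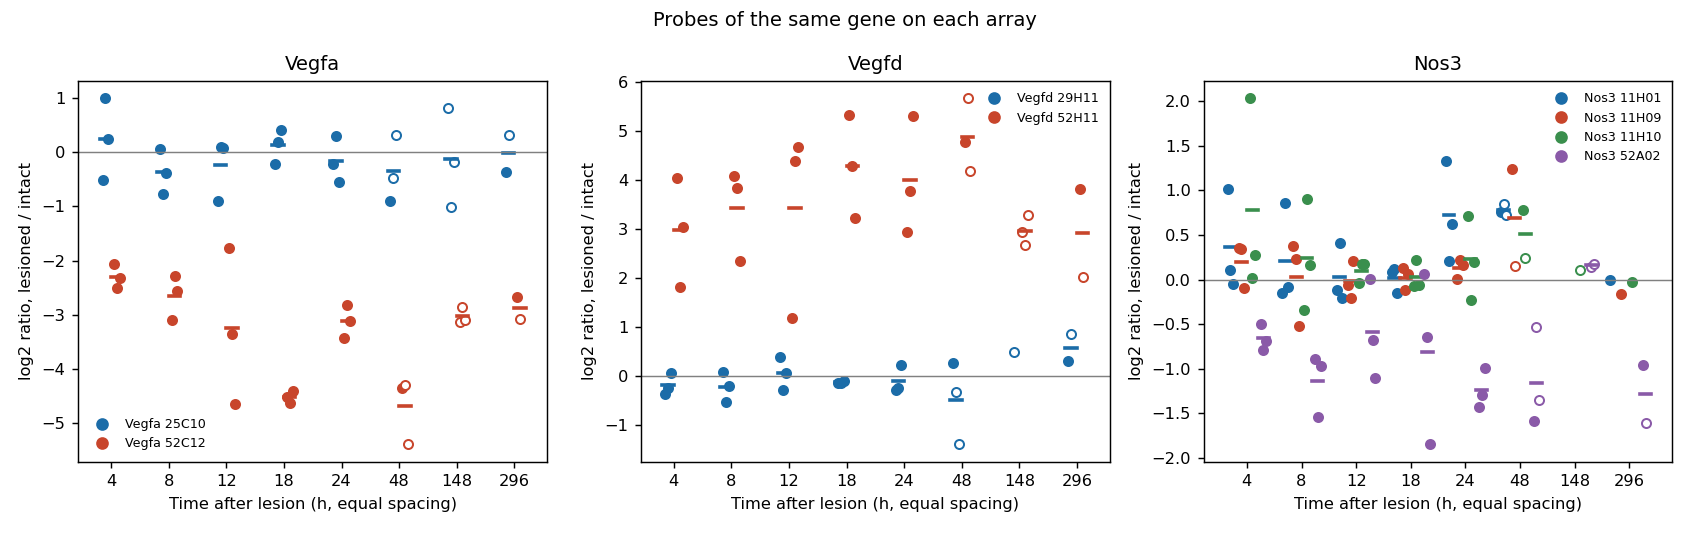
Log2 ratio of lesioned over intact ganglia (vertical axis) for every probe of Vegfa, Vegfd and Nos3 on each array, by time after the lesion in hours (horizontal axis, equal spacing). Filled points are full arrays, open points sparse arrays, and bars the mean of a time with at least 2 values. Vegfa 52C12 lies between -5.39 and -1.76 and Vegfd 52H11 between 1.19 and 5.67, while the other probe of each gene stays near 0.

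Single times were tested with limma against 0 with a threshold of 0.05 on the adjusted p. At 4 h 2 of 13 probes passed, against 1.85% of all probes tested, and they were Vegfa 52C12 (-2.32, SE 0.34) and Vegfd 52H11 (2.88, SE 0.58). At 8 h 3 of 13 passed against 1.26% of all, these probes and Nos3 52A02. The same 3 and Vwf made 4 of 13 at 12 h, where 3.61% of all probes passed. At 18 h Vegfa 52C12 (-4.54, SE 0.29, adjusted p = 1.23e-08) and Vegfd 52H11 (4.5, SE 0.48, adjusted p = 2.33e-05) were the 2 of 13, against 2.07%. At 24 h 4 of 13 passed against 6.19%, these probes, Tie1 and Nos3 52A02.

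From 48 h on, most arrays were sparse. At 48 h 2 of 13 passed against 3.96% of all probes, Vegfa 52C12 (-4.51, SE 0.56) and Vegfd 52H11 (5.0, SE 0.94). At 148 h 2 of 9 passed against 8.75%, Vegfa 52C12 (-3.00, SE 0.65) and Tie1. At 296 h, where the full array weighed no more than the sparse array, limma called 0 of 10, against 0.106% of all probes. At an unadjusted p under 0.05 there were 3 at that time, Vegfa 52C12, Vegfd 52H11 and Ace. The share of all probes at that unadjusted limit is not given here, so these 3 say nothing about the members in particular. With equal weights for all arrays 4 passed the adjusted threshold. Calls over all probes rose as well with equal weights, as given below for Ace. Without replicate 3 at 12 h 1 passed at 296 h. Without replicate 1 at 296 h 3 did, but this leaves 1 sparse array, assumed to vary like the other groups.

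Several calls of Vegfd 52H11 at single times could be lost by leaving out 1 array of that time. Without 1 array its value stayed high but did not pass at 4 h (2.44 without replicate 1, 2.94 without replicate 3), at 8 h (3.09 without replicate 1), at 12 h (2.94 without replicate 2, 2.79 without replicate 3) and at 48 h (4.93 without replicate 1, 4.48 without replicate 2). Vegfa 52C12 was more even, and lost a call to 1 array only at 148 h (-3.11 without replicate 2, -2.99 without replicate 3).

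In the mean over the 8 times 5 of the 9 tested members passed, 4 lower and 1 higher, but 40.0% of all 2327 tested probes passed as well. A constant offset of a probe counts as an effect in this mean. A dye effect of a probe and a lesion effect that lasts over all times cannot be told apart without a dye swap. In the moderated F-test of equal times 0 of 9 members passed in limma, against 0.817% of all probes. Before adjustment 3 were under 0.05 in this test (Vegfa 52C12, Vwf and Ace), and the share of all probes at that limit is not given here. For Vegfa 52C12 the adjusted p of this test was 0.0942, and 0.0354 with equal weights. Leaving out 1 array gave 1 call in the F-test without replicate 1 or 3 at 12 h and 2 without replicate 1 at 296 h, which leaves 1 array there.

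Tie1, an orphan receptor that modulates signalling by Tek, was lower in lesioned ganglia in the mean over the times. Its log2 ratios were -1.36, -0.39 and -0.63 at 4 h, -0.34, 0.12 and -1.81 at 8 h, and -0.30, -0.55 and -0.60 at 12 h. They were -0.53, -0.37 and -0.40 at 18 h and -1.41, -1.28 and -1.01 at 24 h. The 3 arrays at 24 h all lay below those at 18 h. Later values were -1.16, -0.66 and -2.23 at 48 h, -1.90, -1.09 and -2.98 at 148 h, and -1.31 and 1.14 at 296 h, where the replicates had opposite signs.

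Of its 23 arrays 21 were below 0. The mean over the times fell by 0.84 (SE 0.15, adjusted p = 0.000276), 1.79-fold lower. Tie1 passed at 24 h (-1.20, SE 0.28, adjusted p = 0.0153) and at 148 h (-1.98, SE 0.57, adjusted p = 0.0388). Leaving out any 1 of the 3 arrays of either time ended that call, with estimates of -1.34 to -1.15 at 24 h and of -2.44 to -1.50 at 148 h. With array class as a block Tie1 passed neither in the mean (-0.59, adjusted p = 0.0952) nor at 24 h (-0.66, adjusted p = 0.673) nor at 148 h (-2.51, adjusted p = 0.0806). With scaling between arrays the 148 h value was -0.50 (adjusted p = 0.170).

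Tek, the receptor for angiopoietins, did not pass in any comparison. Its ratios ranged from -0.51 to 1.44 with a median of 0.12, and the mean over the times was 0.17 (SE 0.12, adjusted p = 0.243, 95% interval -0.07 to 0.42). Angpt1, the ligand that activates Tek, had a mean of 0.10 on its probe and did not pass, whereas Angptl2, an angiopoietin-like protein, fell by 0.58. The angiopoietin and Tie list counted 4 tested probes, of which 2 were lower (Tie1 and Angptl2) and 0 higher in the mean, with a list median of -0.24 against -0.02 over all probes. The list was written with earlier results of these data known.

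Nos3 was measured by 4 probes, of which 1 stood apart. Probe 52A02 gave -0.50, -0.79 and -0.69 at 4 h, -0.89, -1.54 and -0.97 at 8 h, and 0.01, -0.68 and -1.11 at 12 h. It gave 0.06, -0.64 and -1.85 at 18 h and -1.43, -1.30 and -1.0 at 24 h. Later values were -1.59, -0.54 and -1.35 at 48 h, 0.15 and 0.18 on the 2 arrays measured at 148 h, and -0.96 and -1.61 at 296 h. It was below 0 on 18 of 22 arrays, and the arrays above 0 were replicate 1 at 12 and 18 h and both at 148 h. The mean over the times fell by 0.83 (SE 0.14, adjusted p = 0.00021), 1.78-fold lower.

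Single-time calls of 52A02 depended on single arrays. It passed at 8 h (-1.12, adjusted p = 0.0323), 12 h (-0.78, adjusted p = 0.0474) and 24 h (-1.21, adjusted p = 0.0106). The 8 h call was lost without any 1 of its 3 arrays (-1.26 to -0.93). The 24 h call was lost without replicate 2 (-1.21) or replicate 3 (-1.37). At 12 h the replicate block (-0.68, adjusted p = 0.0920) and 21 of 26 settings that left out 1 array or 1 replicate number ended the call, with values of -0.90 to -0.34. Equal weights, scaling between arrays, full arrays alone and array class as a block each ended the calls at 8 and 12 h. Scaling and array class as a block also ended that at 24 h. Of 10 processing settings 5 kept the call at 8 h, 4 at 12 h and 7 at 24 h.

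The 3 probes of plate 11 did not follow 52A02. Probe 11H01 had a median of 0.12 (range -0.21 to 1.33), 11H09 one of 0.14 (range -0.52 to 1.24) and 11H10 one of 0.17 (range -0.34 to 2.03). None of them passed at a time in the weighted fit, but at 48 h 11H01 was higher with equal weights (0.78, adjusted p = 0.0484) and 11H09 on the 1 full array, opposite in sign to 52A02. They lacked values on 4 or 5 arrays, all of them sparse. They exceeded 52A02 by 1.27 (SD 0.77, n = 19), 1.04 (SD 0.71, n = 18) and 1.13 (SD 0.81, n = 19), with adjusted p of 4e-05, 6e-05 and 9.6e-05 by the permutation test. Among the plate 11 probes the mean differences were 0.18, 0.03 and -0.16, with adjusted p of 0.18, 0.777 and 0.302 by the same permutation test.

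Disagreement of this size within a gene was uncommon on these arrays. Over 4 to 24 h, 191 genes had several probes, the median range between the means of their probes was 0.37, and 12 genes (6.28%) ranged over more than 1. Vegfd ranked 1 with 3.73, Vegfa 3 with 3.08 and Nos3 8 with 1.16. All 3 genes share that the outlying probe lies on plate 52. Of the tested probes of that plate 62 of 83 (74.7%) passed in the mean over the times, against 42 of 69 (60.9%) on plate 36, which holds Tie1, 14 of 20 (70%) on plate 53, and 812 of 2155 (37.7%) on all other plates. Within these others, plate 43 (60.6%) and plate 11 (59.4%), which holds the other Nos3 probes, came near plate 36.

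For 66 genes a probe on plate 52 could be set beside probes elsewhere. The plate 52 probe was lower for 53 genes and higher for 13, with a median difference of -0.43, and 8 genes differed by more than 1. Besides Vegfa (-3.08), Vegfd (3.73) and Nos3 (-1.09), they were Rps6kb1 (2.38), Il3 (1.41), Nos1 (-1.27), Klk6 (-1.19) and Adcy2 (-1.06). The VEGF co-receptor Nrp2 fell on both of its probes, by 0.60 on plate 52 and by 0.59 on plate 43, where 40 of 66 tested probes (60.6%) passed. Probe sequences were not used here, so whether the probes of a gene reach the same transcript was not tested, nor was the part of the plate in the calls for 52C12, 52H11, 52A02 and Tie1.

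**Figure D2:**
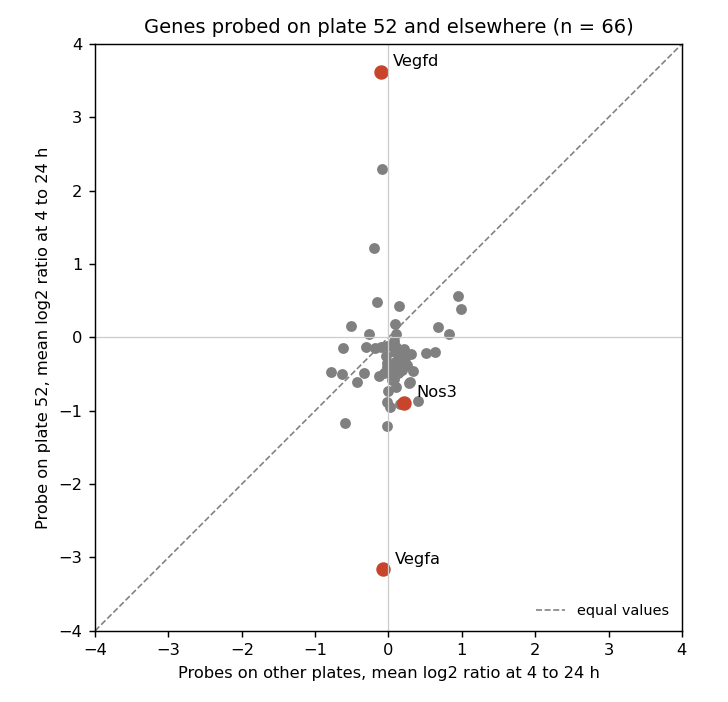
Mean log2 ratio at 4 to 24 h of the probe on plate 52 (vertical axis) against that of the probes on other plates (horizontal axis) for the 66 genes that have both, 1 point per gene. The dashed line marks equal values, and Vegfa, Vegfd and Nos3 are in red. Vegfd and Vegfa lie farthest from the line, with means of 3.62 and -3.16 on plate 52 and of -0.11 and -0.08 elsewhere.

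Vwf, the endothelial storage glycoprotein, was the most variable of the genes with 1 probe apart from Ace. Its log2 ratios were -0.71 and -0.01 at 4 h, 0.07, 0.83 and -1.88 at 8 h, and -0.19, -4.02 and -1.75 at 12 h. They were 0.81, 0.29 and -1.07 at 18 h and -1.39, 0.36 and -0.21 at 24 h. The replicates of 8, 18, 24 and 296 h had both signs. Later values were -0.45 and -1.94 at 48 h, -3.80, -0.27 and -2.65 at 148 h, and 1.01 and -0.54 at 296 h.

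Vwf passed at 12 h (-2.55, SE 0.50, adjusted p = 0.0076), 5.84-fold lower. That call rests on 2 arrays. Without replicate 2 the value was -0.97, and without replicate 3 it was -2.11, and neither passed. With equal weights it was -1.99 (adjusted p = 0.467) at 12 h, and Vwf passed at 148 h instead (-2.24, adjusted p = 0.0282). The mean over the times was -0.73 (SE 0.33, adjusted p = 0.092), which passed with equal weights alone (-0.79, adjusted p = 0.029).

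Cldn5, the tight junction protein, ranged from -0.40 to 1.15 with a median of 0.15 and was above 0 on 14 of 22 arrays. Its mean over the times was 0.20 (SE 0.11, adjusted p = 0.179, 95% interval -0.04 to 0.44). In the junction and barrier list 6 probes were tested, with 1 higher and 1 lower in the mean and a median of -0.03. The higher gene was Slc2a1, the glucose transporter of barrier endothelium and also of glia, with 0.81, and the lower was Cldn1, a claudin of the perineurium, with -0.61.

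Ace was near 0 up to 24 h and lower afterwards. Its log2 ratios were 0.13, -0.44 and -0.05 at 4 h, -0.11, 0.39 and 0.07 at 8 h, and -0.33 and 1.20 on the 2 arrays measured at 12 h. They were -0.17, 0.21 and -0.06 at 18 h, and 0.56 and 0.26 at 24 h. Later values were -0.84, -5.13 and -0.18 at 48 h, -3.12, -0.62 and -5.78 at 148 h, and -2.64 and -5.67 at 296 h. All 8 late arrays were below 0, whereas 4 of the 8 arrays at 4 to 12 h were. The groups overlapped, since replicate 3 at 48 h (-0.18) lay inside the early range of -0.44 to 1.20.

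The fitted mean was 0.27 at 4, 8 and 12 h and -3.19 at 48, 148 and 296 h. The late minus early difference was -3.46 (SE 0.66, adjusted p = 0.00836), or 11-fold lower, and Ace was the 1 of 9 tested members to pass, against 4.98% of all probes. No single late time passed, with an adjusted p of 0.153 at 48 h, 0.0672 at 148 h and 0.216 at 296 h. Calls at these times depended on the fit. With equal weights Ace passed at 148 h (adjusted p = 0.0112) and 296 h (adjusted p = 0.0262), where 916 of 3187 and 245 of 2833 probes then passed. It also passed at 148 h with probes averaged per gene (adjusted p = 0.0399) and at 296 h with array class as a block or on the 1 full array.

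In the mean over the times Ace fell by 1.04 (SE 0.26, adjusted p = 0.00497) and ranked 71. That mean was -0.32 on full arrays alone (adjusted p = 0.0576) and -0.37 with scaling between arrays (adjusted p = 0.383), and passed in neither.

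Of the 8 late arrays 6 were sparse. The 2 full ones gave -0.84 at 48 h and -2.64 at 296 h, and on full arrays alone, where 148 h drops out, the difference was -2.01 (adjusted p = 0.0107), with 1 array each at 48 and 296 h and the spread taken from the other times. With array class as a block it was -1.55 (adjusted p = 0.999), and with the arrays scaled to equal spread -1.72 (adjusted p = 0.441). Leaving out 1 array changed it to between -3.97 and -2.85 where it could be tested, and it passed each time. Without replicate 1 or 2 at 12 h, or 2 or 3 at 24 h, Ace had fewer than 2 values at that time and was not tested.

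**Figure D3:**
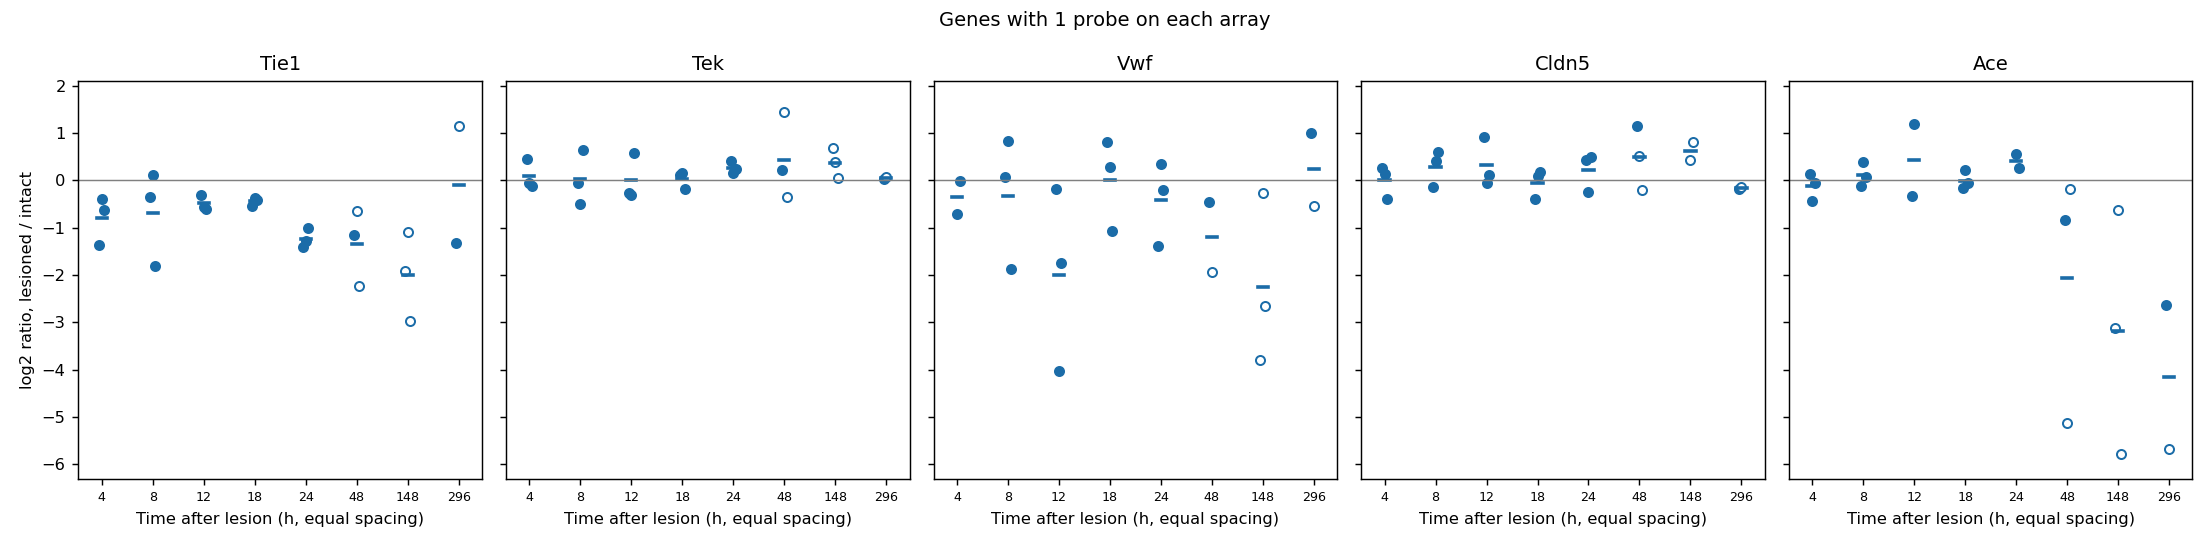
Log2 ratio of lesioned over intact ganglia (vertical axis, shared) on each array for Tie1, Tek, Vwf, Cldn5 and Ace, by time after the lesion in hours (horizontal axis, equal spacing). Filled points are full arrays, open points sparse arrays, and bars the mean of a time. Ace lies between -0.44 and 1.20 at 4 to 12 h and between -5.78 and -0.18 from 48 h on.

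Late minus early differences of the other 8 tested members did not pass. They ran from -0.56 for Vegfa 52C12 (95% interval -1.44 to 0.33) to 0.28 for Tek (95% interval -0.34 to 0.90), and the interval of Vwf, from -1.70 to 1.88, leaves room for large changes in either direction. These intervals set limits on change from early to late times, not on the ratio itself. An F-test that did not pass sets no limit on the size of a change.

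Marker lists of the cell types in the ganglion were tested in the same late minus early contrast. On the endothelial marker list 8 of 11 genes had a probe, but the 5 probes that could be tested are the members Tie1, Tek, Nos3 52A02, Vwf and Cldn5 given above, which did not pass, so the list adds no further endothelial gene. A separate list of endothelial markers and adhesion genes had 3 tested probes, Nos3 52A02, Vwf and Plvap. Plvap passed neither late minus early (-0.39, adjusted p = 0.479 by limma) nor in the mean over the times (-0.10, adjusted p = 0.489 by limma). On the macrophage list 6 of 8 genes had a probe, and the 2 that could be tested both rose late, C1qb by 2.12 (SE 0.39, adjusted p = 0.00567) and Lyz2 by 1.77 (SE 0.30, adjusted p = 0.00319). Of the sensory neuron markers 9 probes for 7 genes were tested and 4 fell late, with a list median of -0.55. Over all 2327 tested probes 85 rose and 31 fell late, with a median of 0.04. The 4 were Scn10a (-0.94), Calca 35C05 (-0.89), Tac1 (-0.86) and Nefl 52A12 on plate 52 (-0.55). The second probes of Calca (52C03, -0.45) and Nefl (27F06, -0.37) did not pass. Of 6 tested probes of glial markers 1 fell, Mbp (-0.95), and 0 passed among 3 of mural cells, 2 of blood and 1 of skeletal muscle. The part of these shifts in the value of Ace was not tested.

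**Figure D4:**
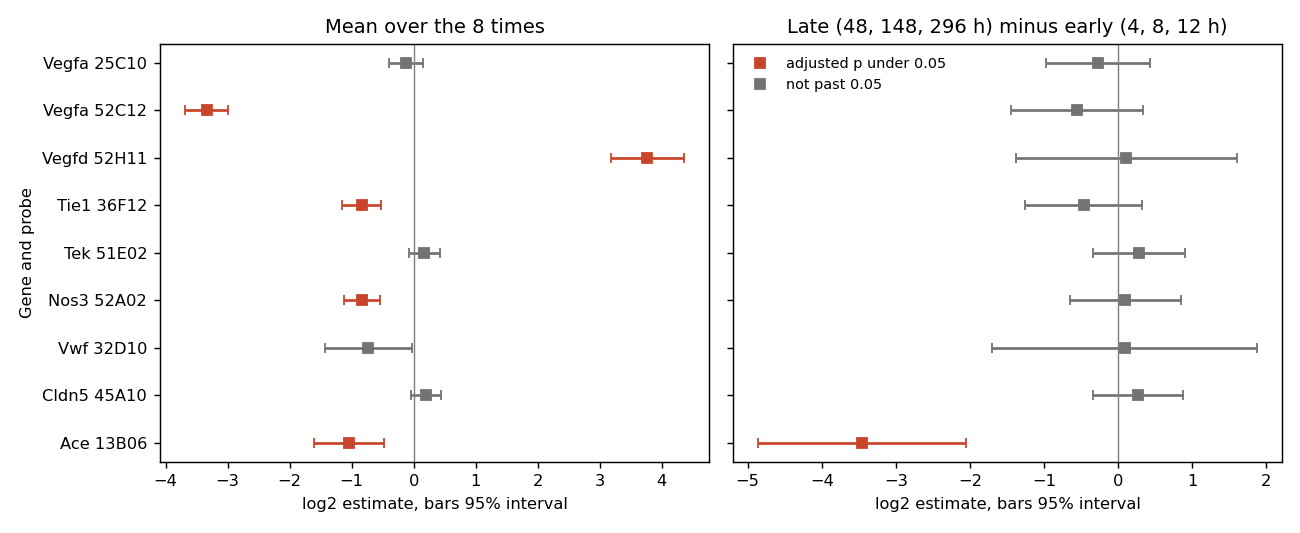
Estimates with 95% intervals (horizontal axis, log2) for the 9 probes tested over all times (vertical axis), as the mean over the 8 times (left) and as late minus early (right). Red marks an adjusted p under 0.05, reached by 5 probes on the left and by Ace alone on the right.

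Other members of the VEGF system were read on the same scale. The VEGF family and receptor list held 14 probes for 10 genes, of which 6 could be tested over all times, with 1 higher and 3 lower. These were the members 52H11 and 52C12 and both probes of Nrp2. Vegfc, the other lymphatic growth factor, had a mean of 0.20 and did not pass. The receptors Kdr, Flt1 and Flt4 lacked values on 3 to 5 arrays, had fitted means of 0.10, 0.01 and 0.07 over the times, and passed at no single time. Except for 52C12 and 52H11, no probe of this list passed at a single time.

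The hypoxia list, whose genes include targets of the factor that also drives Vegfa, had 7 tested probes, 4 higher and 1 lower in the mean (list median 0.29). The higher genes were Slc2a1 (0.81), the glycolytic enzymes Pgk1 (0.41) and Ldha (0.27), and Vhl (0.30), which marks that factor for degradation. The lower gene was the glycolytic enzyme Eno1 (-0.78). Of 8 tested probes of other angiogenic factors 2 were higher, the plasminogen activator Plat (0.47) and the PDGF receptor Pdgfra (0.31). The 4 lower were the urokinase gene Plau (-0.90), Notch1 (-0.68), the growth factor Fgf1 (-0.46) and Tgfb1 on plate 52 (-0.40). The other Tgfb1 probe, 1A07, could not be tested, and its fitted mean had the opposite sign (0.41, SE 0.20).

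Most probes of the vascular tone list could not be tested over the times. Of 22 probes for 18 genes 5 were tested, with 1 higher, the bradykinin receptor Bdkrb2 (0.31), and 2 lower, Ace and Nos3 52A02. The share of calls in the mean on these lists is to be read against the 40.0% of all probes.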

How the data were processed

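Total RNA of lesioned (Cy5) and intact (Cy3) ganglia was hybridised on 23 arrays, grouped by the time in the labels. The authors deposited 1 linear ratio per probe and array. How these ratios were scanned, background-corrected and normalized is not given in the sources used here. Intensities were not used, so signal over background is not known, and precision is limited by how many arrays there were. Ratios were converted to log2 without an offset. With limma 3.58.1 in R 4.3.3, a mean per time was fitted over all arrays with array weights and a moderated variance. Tests of 1 time took probes with values on 2 or more of its arrays, and the other contrasts on probes that met this at all times. All tests were two-sided, with Benjamini-Hochberg adjustment over all tested probes and a threshold of 0.05. The fit was tested on simulated data. Probes of a gene were compared by 1e+05 sign-flip permutations. Late minus early is the mean of 48, 148 and 296 h minus that of 4, 8 and 12 h. Symbols come from the platform annotation. 4423 probes carry 1 symbol, 2 several and 663 none, and 4375 identifiers matched the reference table. Every member probe was reported. Of the pathway lists each gene past the threshold in the mean or in late minus early was named. Of the marker lists only those past it in late minus early were named. The VEGF receptors, Vegfc, Angpt1, Plvap and the plate 52 genes were named after their values were seen. Genes, lists and tests were chosen with earlier results of these data known. Alternatives covered weights, centring, scaling, array class, replicate block, filters, probe means and left-out arrays.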

Additional observations from a re-analysis of the deposited data

Results flagged for a closer look

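The late minus early difference of Ace, -3.46 on the log2 scale (adjusted p = 0.00836 by limma), was singled out because the lesion effect differed between groups of times in the test of the difference itself. All 8 arrays from 48 h on were below 0, and 6 of them were sparse.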

How the results depend on the processing

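The means over the times of Vegfa 52C12, Vegfd 52H11 and Nos3 52A02 passed under every alternative in which they were tested as single probes. Apart from left-out replicates, the ranges were -3.43 to -3.28, 3.61 to 3.98 and -0.99 to -0.80. They include full arrays alone, where 148 h drops out, which gave the 3.98 and the -0.99. With replicate numbers or single arrays left out, the ranges were -3.40 to -3.18, 3.54 to 3.88 and -0.96 to -0.78. Median centring, robust variance and no filter on missing values moved no count of calls by over 1.5 times. Equal weights gave 2 calls at 12 h, 5 at 48 h, 5 at 148 h, 4 at 296 h and 1 in the F-test. Calls over all probes also rose with equal weights at 148 and 296 h, as given for Ace. Scaling between arrays gave 0 at 4, 8, 24, 48 and 148 h and in late minus early, 2 at 12 h and 1 at 18 h. Full arrays alone gave 1 at 4 h, 4 at 48 h, 1 at 296 h and 1 in the F-test, where 48 and 296 h had 1 array each, below the minimum of 2, with the spread taken from other times. Array class as a block gave 0 at 4 and 148 h and in late minus early, 1 at 8, 12, 18 and 24 h, and 2 at 296 h. Requiring all arrays gave 3 in the mean and 0 in late minus early, where Ace was no longer tested. Averaging probes per gene gave 4 at 148 h. With this averaging the mean over the times was -1.73 for Vegfa and 2.01 for Vegfd, which passed. For Nos3 it was -0.13 (adjusted p = 0.288 by limma), which did not pass, and Nos3 passed at no single time. Only the arrays of a time gave 0 at 4, 8, 12, 48 and 148 h and 1 at 18 and 24 h. For the remaining counts the cause was not tested. Shares over all probes under the other alternatives are not given here, so these counts say nothing about the members in particular.

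Replicate numbers did not pair the arrays. Same-numbered arrays had a median residual correlation of -0.006 (77 pairs), others 0.004. The replicate block ended the call of Nos3 52A02 at 12 h (-0.68) and no other. Leaving out single arrays was added after seeing the data. With replicate numbers or single arrays left out, calls ran from 0 to 2 at 4 h, 1 to 3 at 8 h, 0 to 4 at 12 h, 1 to 3 at 18 h, 1 to 4 at 24 h, 0 to 2 at 48 h, 0 to 3 at 148 h, 0 to 3 at 296 h, 3 to 6 in the mean, 0 to 1 in late minus early and 0 to 2 in the F-test.

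No value past the threshold changed sign. Late minus early values that did were those of Vwf (-0.18 with equal weights, -0.043 with the replicate block), and with scaling Vegfa 52C12 (1.31), Vegfd 52H11 (-2.0), Tek (-0.086) and Cldn5 (-0.075). Nos3 52A02 gave -0.42 on full arrays. Without a replicate number Vegfa 25C10 ran from -0.16 to 0.13, Vegfd 52H11 from -0.046 to 0.57 and Tek from -0.095 to 0.60. The mean of Vegfa 25C10 was 0.048 with array class as a block. The difference of Nos3 11H01 and 11H10 was -0.0071 on full arrays, -0.0076 at 4 to 24 h and -0.063 to 0.085 without a replicate number.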
